A study of Homo sapiens with 6 samples.

Results

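The enzymes of the tricarboxylic acid (TCA) cycle, of pyruvate entry into mitochondria and of glutamate, aspartate and alanine exchange were examined in Hep-G2 cells after knockdown of CLGN. A list of 33 genes was matched by gene name in a table of 58735 genes, and all 33 were found once. Pyruvate crosses the inner mitochondrial membrane through a carrier and is turned into acetyl-CoA by the pyruvate dehydrogenase (PDH) complex, which kinases switch off and phosphatases switch on. The TCA cycle oxidizes acetyl-CoA and hands electrons to the respiratory chain, while glutamate dehydrogenase and the aminotransferases move carbon and nitrogen between the cycle and amino acids. In hepatocytes these reactions also feed gluconeogenesis and urea synthesis, and the aspartate aminotransferases and malate dehydrogenases together carry reducing equivalents across the mitochondrial membrane.

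RNA was sequenced from 3 sh-NC and 3 sh-CLGN libraries of Hep-G2, an established line from a human liver tumour. The sh-NC cells had the wild-type CLGN genotype and carried a control short hairpin RNA, and the sh-CLGN cells carried a hairpin directed at CLGN, the gene of the endoplasmic reticulum chaperone calmegin. In the study's methods each hairpin was delivered by lentivirus and the cells were selected with puromycin, so both groups share the vector and the selection. Each group held 1 hairpin, so an effect of the hairpin sequence and an effect of CLGN loss cannot be told apart, and nothing in the labels states whether the 3 libraries of a group came from separate cultures. The p-values therefore measure the spread between these libraries, which may be technical.

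Expression is given in FPKM, the reads of a gene divided by its length and by the library size. Whole reads could be recovered from the values and summed to between 14955816 and 16244639 per library. CLGN itself was at 24.1, 21.0 and 26.1 FPKM in the control replicates 1, 2 and 3, the order kept for every gene given here, and at 9.48, 8.88 and 8.60 FPKM in the knockdown replicates, a log2 fold change of -1.31 (SE 0.0807, limma adjusted p = 8.35e-06). The 8 hepatocyte markers summed to 6795 to 6992 FPKM in sh-NC and 6928 to 7427 FPKM in sh-CLGN. This sum hides changes in both directions. Of the 8, 4 fell (50%, against 39.0% of all tested genes) and 3 rose (37.5%, against 26.7%). On average AFP rose from 2670 to 3782 FPKM, while ALB fell from 2007 to 1076 FPKM and TF from 181 to 58.4 FPKM. The 5 fibroblast markers summed to 6.46 to 7.94 FPKM in sh-NC and 45.9 to 47.3 FPKM in sh-CLGN. Most of this was COL1A2, at 4.20 FPKM on average in sh-NC and 38.7 FPKM in sh-CLGN. All 4 tested markers were higher (100%, against 26.7% of all tested genes), PDGFRB only 1.30-fold. DCN, with at most 1 read per library, was under the expression filter. The 3 endothelial markers summed to 3.33 to 3.67 FPKM and 2.38 to 2.65 FPKM, and the 3 leukocyte markers to no more than 0.133 FPKM in any library. Transcripts of the mitochondrial genome took 3.25% to 4.02% of reads in the controls and 5.49% to 5.80% in the knockdown libraries. The part of these shifts in the enzyme values was not tested.

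Most of the enzymes that changed were lower in sh-CLGN. GOT1, the cytosolic aspartate aminotransferase, fell furthest, to 40.0% of the sh-NC level, followed by PDK1, GPT2, FH, SUCLG1 and the mitochondrial aminotransferase GOT2, which lay between 47.0% and 62.2% of it. PDHX, SUCLA2 and PDP2 rose, each to between 130% and 133% of the sh-NC level. Of the 33 genes, 29 reached 1 FPKM in at least 3 libraries and were tested, and the other 4 (ME3, PDK2, PDP1 and GLS2) did not. In limma on log2(FPKM + 1), with p-values adjusted over all 13074 genes tested and a threshold of 0.05, 18 of the 29 were lower (62.1%, against 39.0% of all tested genes), 3 were higher (10.3%, against 26.7%) and 8 did not pass. When a log2 fold change of 1 or more in either direction was required as well, 1 of 29 passed (3.45%, against 6.28%). This count depended on the 1 FPKM added before the logarithm. With 0.1 FPKM added, 3 of 29 passed (10.3%, against 12.3%), and with voom on the recovered reads also 3 (against 13.2%), in both fits GOT1, GPT2 and PDK1. The groups did not overlap, with all libraries of one on one side of the other, for 23 of the 29 enzymes (79.3%, against 70.2% of all tested genes). In bulk RNA, fewer cells of a kind and less RNA per cell cannot be told apart.

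**Figure D1:**
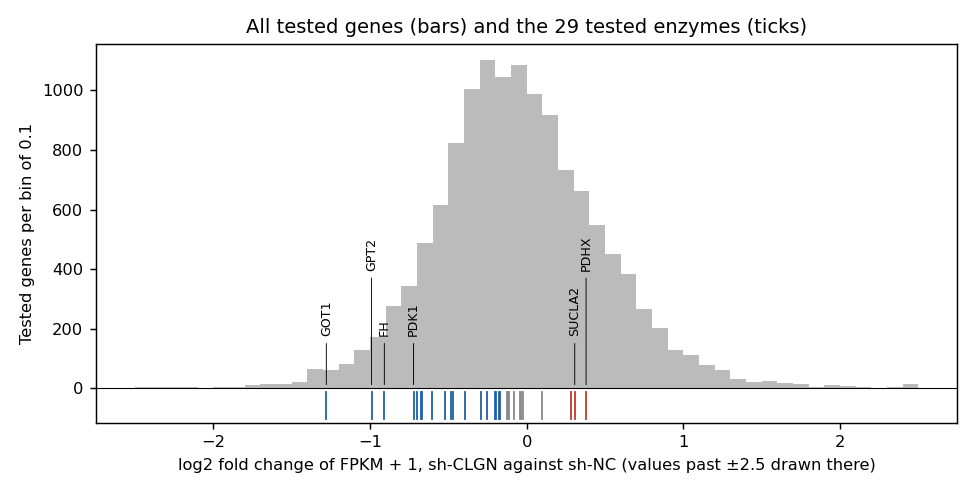
Log2 fold changes of FPKM + 1 in sh-CLGN against sh-NC for the 13074 tested genes (grey bars, genes per bin of 0.1) and for the 29 tested enzymes (ticks under the axis, blue for the 18 lower, red for the 3 higher and grey for the 8 that did not pass). The ticks run from GOT1 at -1.28 to PDHX at 0.38, inside the range of all tested genes.

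The median log2 fold change was -0.20 over the 29 enzymes and -0.077 over all tested genes. The position of 0 depended on how the libraries were scaled, though not in every setting. Median-ratio scaling of the deposited values gave medians of -0.20 for the enzymes and -0.076 for all tested genes. It left 18 enzymes lower and 3 higher, the same counts as without it. The deposited values had been divided by library sizes of 0.933 to 0.953 of the recovered reads in the sh-NC libraries and 1.07 to 1.08 in the sh-CLGN libraries. Scaling by read totals in place of these sizes shifted the median of all tested genes by 0.16, to 0.083. The median of the enzymes moved to -0.020, and 12 enzymes were lower and 5 higher. Of the 13074 tested genes, 3421 were then lower and 4956 higher, against 5102 lower and 3496 higher as deposited. Rescaling to TPM, in which each library has the same sum, shifted the median of all tested genes by 0.11 and left 13 enzymes lower and 4 higher. In TPM 3923 of all tested genes were lower and 4285 higher. The median of the enzymes minus that of all tested genes was -0.13 as deposited, -0.12 in TPM and -0.10 with read totals. As a share of all recovered reads, the 33 genes took 0.410%, 0.412% and 0.425% in the sh-NC libraries and 0.375%, 0.368% and 0.358% in the sh-CLGN libraries, without overlap between the groups.

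**Figure D2:**
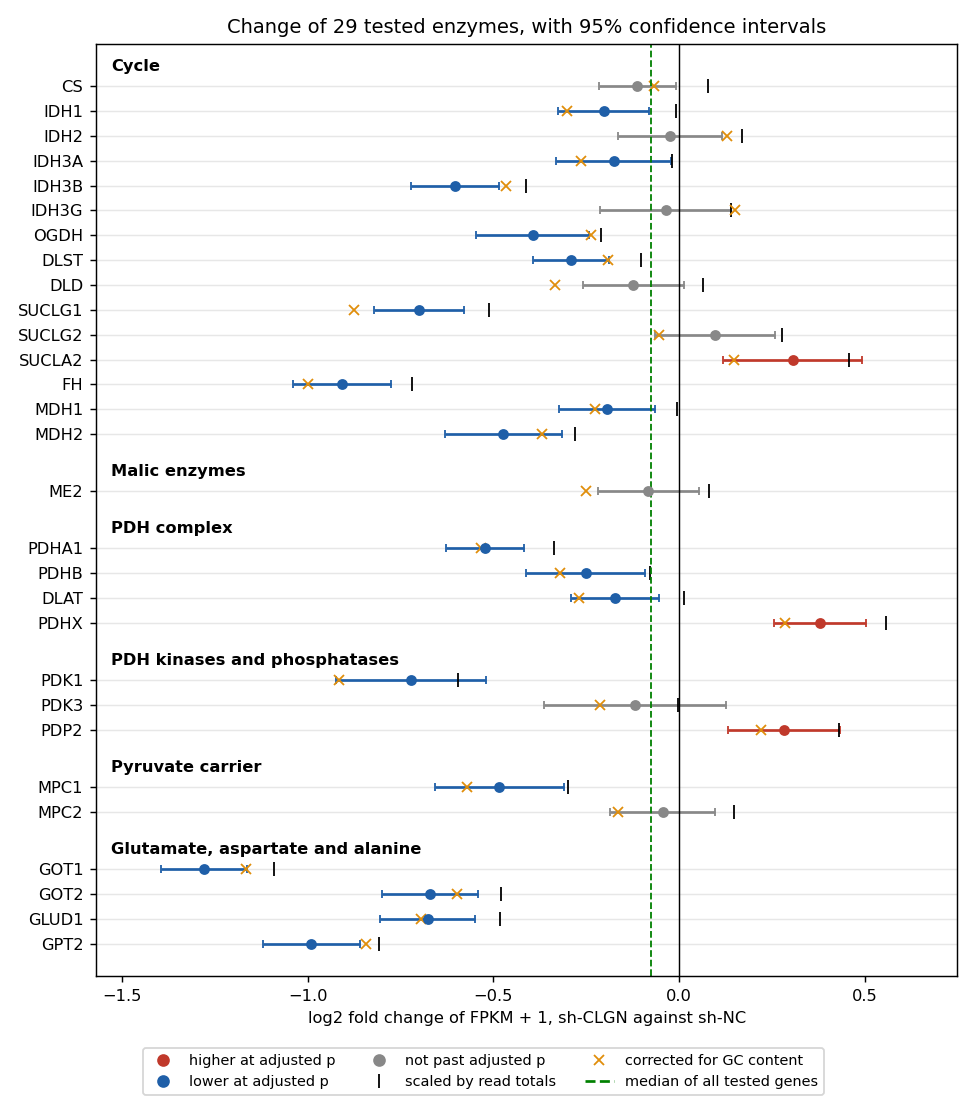
Log2 fold change of FPKM + 1 (x axis) for the 29 tested enzymes by role, as points with 95% confidence intervals from limma (blue lower, red higher, grey not past the adjusted p). Black bars give the value scaled by read totals and orange crosses the value corrected for GC content. The dashed line at -0.077 is the median of all tested genes. For CS, IDH2, IDH3G, DLD, ME2, DLAT and MPC2 the black bar lies on the other side of 0 from the point, and for IDH2, IDH3G and SUCLG2 the orange cross does.

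The first reactions of the cycle were examined in order. CS, citrate synthase, condenses acetyl-CoA with oxaloacetate. It was at 39.9, 41.6 and 42.5 FPKM in sh-NC and 38.6, 37.6 and 38.2 FPKM in sh-CLGN. These groups did not overlap, but the log2 fold change of -0.11 (SE 0.0450, limma adjusted p = 0.0561) missed the threshold, and it was 0.078 when scaled by read totals and 0.17 with quantile normalization, where CS was called higher (adjusted p = 0.0176). IDH1, the cytosolic NADP-dependent isocitrate dehydrogenase, was at 142, 142 and 154 FPKM in sh-NC and fell to 131, 126 and 122 FPKM (log2 fold change -0.20, SE 0.0529, adjusted p = 0.010). With read totals the IDH1 value was -0.0090, and quantile normalization turned it to 0.13. IDH2, the mitochondrial NADP-dependent form, was at 118, 116 and 103 FPKM in sh-NC and 108, 112 and 111 FPKM in sh-CLGN. Its groups overlapped, with a log2 fold change of -0.024 (95% confidence interval -0.16 to 0.12, adjusted p = 0.741). IDH2 was called higher with quantile normalization (0.27, adjusted p = 0.00243), read totals (0.17, adjusted p = 0.0274) and GC correction (0.13, adjusted p = 0.0191).

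The NAD-dependent isocitrate dehydrogenase of the cycle is built from IDH3A, the catalytic subunit, with IDH3B and IDH3G. Its subunits differed in their change. IDH3B was at 51.5, 50.8 and 51.0 FPKM in sh-NC and 34.4, 31.3 and 34.2 FPKM in sh-CLGN, 65.2% of the control level (log2 fold change -0.60, SE 0.0510, adjusted p = 3.37e-05). IDH3A was expressed at a lower level per length, at 4.26, 4.32 and 4.34 FPKM in sh-NC and 3.69, 4.0 and 3.42 FPKM in sh-CLGN. Its log2 fold change of -0.18 (SE 0.0668, adjusted p = 0.0470) passed narrowly, and it missed the threshold in 5 of the 6 fits that left out 1 library (adjusted p up to 0.161) and when the replicate number was a block (adjusted p = 0.0855). For IDH3A, 38.2% of the exon bases overlap ACSBG1 on the other strand, a gene at no more than 0.0196 FPKM on average in either group. IDH3G was at 10.2, 8.80 and 8.94 FPKM in sh-NC and 9.72, 8.33 and 9.12 FPKM in sh-CLGN. For IDH3G the groups overlapped (log2 fold change -0.036, interval -0.21 to 0.14, adjusted p = 0.701).

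The 2-oxoglutarate dehydrogenase complex turns 2-oxoglutarate into succinyl-CoA. OGDH, its first subunit, was at 18.4, 17.9 and 16.3 FPKM in sh-NC and 12.5, 12.8 and 14.1 FPKM in sh-CLGN, 74.8% of the control level (log2 fold change -0.39, SE 0.0659, adjusted p = 0.00110). DLST, the succinyltransferase, was close to even within sh-NC, at 24.1, 24.3 and 24.5 FPKM, and was at 19.3, 20.2 and 19.6 FPKM in sh-CLGN (log2 fold change -0.29, SE 0.0440, adjusted p = 0.000658). The DLST value was -0.10 with read totals, where it missed the threshold (adjusted p = 0.0793). DLD, the dihydrolipoamide dehydrogenase that this complex shares with the PDH complex, was at 28.2, 27.2 and 30.4 FPKM in sh-NC and 27.6, 25.4 and 25.6 FPKM in sh-CLGN. One sh-CLGN library lay inside the sh-NC range, and the log2 fold change of DLD was -0.12 (interval -0.26 to 0.014, adjusted p = 0.0996). With the trend on GC content removed, the DLD value was -0.33 (adjusted p = 0.000173).

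Succinyl-CoA ligase, the step that makes GTP or ATP, pairs the shared alpha subunit SUCLG1 with SUCLG2 in the GTP-forming enzyme or with SUCLA2 in the ATP-forming enzyme. The alpha subunit fell while SUCLA2 rose. SUCLG1 was at 31.2, 32.5 and 33.2 FPKM in sh-NC and 20.1, 19.9 and 18.5 FPKM in sh-CLGN, 60.4% of the control level (log2 fold change -0.70, SE 0.0525, adjusted p = 1.95e-05). SUCLA2 was low, at 3.24, 2.67 and 2.93 FPKM in sh-NC and 3.74, 3.68 and 4.22 FPKM in sh-CLGN, from 348 to 609 reads per library (log2 fold change 0.31, SE 0.0809, adjusted p = 0.0105). The rise of SUCLA2 was 0.15 after correction for GC content, where it did not pass (adjusted p = 0.151). SUCLG2 was at 10.3, 10.2 and 11.9 FPKM in sh-NC and 11.4, 12.2 and 11.2 FPKM in sh-CLGN, with overlap (log2 fold change 0.097, interval -0.065 to 0.26, adjusted p = 0.251). Scaled by read totals, SUCLG2 passed at 0.28 (adjusted p = 0.0117), and after the GC correction it was -0.055.

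FH, fumarate hydratase, adds water to fumarate to give malate (ENSG00000091483, chr1:241497603-241519761, minus strand, GRCh38). FH was at 65.1, 63.9 and 67.1 FPKM in sh-NC and 36.9, 33.6 and 32.6 FPKM in sh-CLGN. Mean FH fell from 65.3 ± 1.62 to 34.4 ± 2.27 FPKM (SD, n = 3), 52.6% of the control level, with every sh-CLGN library far below the lowest sh-NC library (log2 fold change -0.91, SE 0.0569, adjusted p = 8.73e-06). This was the largest change within the cycle, and 4.34% of all tested genes had a lower fold change. MDH2, the mitochondrial malate dehydrogenase that closes the cycle, was at 102, 94.6 and 85.9 FPKM in sh-NC and 65.7, 66.2 and 70.3 FPKM in sh-CLGN (log2 fold change -0.47, SE 0.0680, adjusted p = 0.000491). The cytosolic form MDH1 was at 35.6, 36.5 and 37.3 FPKM in sh-NC and 34.0, 31.0 and 30.3 FPKM in sh-CLGN. MDH1 passed at -0.19 (SE 0.0559, adjusted p = 0.0157), but its value was -0.0044 with read totals and 0.079 after quantile normalization. ME2 and ME3, the malic enzymes of the mitochondrion, decarboxylate malate to pyruvate. ME2 was at 4.89, 5.06 and 5.28 FPKM in sh-NC and 4.79, 4.87 and 4.56 FPKM in sh-CLGN, a log2 fold change of -0.082 (interval -0.22 to 0.054, adjusted p = 0.248). The ME2 value was 0.080 with read totals, where it did not pass, and -0.25 with GC correction, where it did (adjusted p = 0.0020). ME3 stayed under the expression filter, with 33, 23 and 28 reads in sh-NC and 36, 51 and 46 reads in sh-CLGN.

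In the PDH complex all 4 subunits measured outside DLD passed the test, 3 lower and 1 higher, where 39.0% of all tested genes were lower and 26.7% higher. PDHA1, the alpha subunit of the decarboxylase and the target of the PDH kinases, was at 26.4, 25.9 and 26.5 FPKM in sh-NC and 18.3, 18.2 and 17.5 FPKM in sh-CLGN, 68.5% of the control level (log2 fold change -0.52, SE 0.0451, adjusted p = 3.75e-05). PDHB, the beta subunit that pairs with it, was at 8.30, 8.45 and 9.29 FPKM in sh-NC and 7.44, 7.42 and 6.55 FPKM in sh-CLGN (log2 fold change -0.25, SE 0.0693, adjusted p = 0.0131), and with read totals it was -0.078 (adjusted p = 0.383). DLAT, the acetyltransferase core, had a mean of 21.9 ± 1.02 FPKM in sh-NC and 19.4 ± 0.416 FPKM in sh-CLGN (log2 fold change -0.17, adjusted p = 0.0183), and it changed sign to 0.014 with read totals and 0.063 after quantile normalization. PDHX anchors DLD to the core of the complex (ENSG00000110435, chr11:34915829-35020591, plus strand). PDHX was at 9.86, 9.11 and 9.35 FPKM in sh-NC and 12.9, 12.2 and 12.7 FPKM in sh-CLGN, 133% of the control level, with no overlap (log2 fold change 0.38, SE 0.0535, adjusted p = 0.000446). This was the largest rise among the 29 enzymes.

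The PDH kinases inactivate PDHA1 and the phosphatases reverse this. PDK1 was at 3.06, 2.56 and 3.20 FPKM in sh-NC and 1.43, 1.31 and 1.42 FPKM in sh-CLGN, 47.0% of the control level, from 319 to 738 reads per library (log2 fold change -0.72, SE 0.0870, adjusted p = 0.000198). Since 1 FPKM was added before the logarithm, this value understates the change of so low a gene, and with 0.1 FPKM added it was -1.03. PDP2, a catalytic subunit of the phosphatase, was at 2.55, 2.74 and 2.82 FPKM in sh-NC and 3.42, 3.62 and 3.46 FPKM in sh-CLGN (log2 fold change 0.28, SE 0.0654, adjusted p = 0.00571). Both PDK1 and PDP2 were separated in every library. PDK3 was at 1.48, 1.54 and 1.83 FPKM in sh-NC and 1.18, 1.37 and 1.69 FPKM in sh-CLGN, with overlap (log2 fold change -0.12, interval -0.36 to 0.13, adjusted p = 0.352). PDK2 gave 54, 57 and 76 reads in sh-NC and 40, 62 and 51 reads in sh-CLGN. PDP1, the other catalytic subunit, gave 39, 51 and 61 reads in sh-NC and 70, 46 and 70 reads in sh-CLGN. PDK2 and PDP1 were both under the expression filter.

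The mitochondrial pyruvate carrier is a dimer of MPC1 and MPC2. MPC1 was at 18.6, 20.1 and 22.9 FPKM in sh-NC and 14.9, 14.1 and 14.1 FPKM in sh-CLGN, 69.9% of the control level (log2 fold change -0.48, SE 0.0750, adjusted p = 0.000729). Its partner MPC2 was at 55.1, 61.2 and 59.7 FPKM in sh-NC and 59.5, 57.9 and 53.3 FPKM in sh-CLGN. The groups overlapped for MPC2, with a log2 fold change of -0.044 (interval -0.18 to 0.098, adjusted p = 0.553). MPC2 was called in both directions by other settings, higher with quantile normalization (0.24, adjusted p = 0.0134) and lower with GC correction (-0.17, adjusted p = 0.0239), and with read totals it was 0.15 without passing. Of the exon bases of MPC2, 22.5% overlap DCAF6 on the other strand, which was at 12.9 FPKM on average in sh-NC and 22.0 FPKM in sh-CLGN. The strand setting of the counting was not given in the sources used here, so reads of these overlapping genes may be shared.

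The enzymes of glutamate, aspartate and alanine had the lowest median log2 fold change of the roles, -0.83, and 4 of the 4 tested were lower, against 39.0% of all tested genes. GOT1 makes aspartate and 2-oxoglutarate from glutamate and oxaloacetate, or the reverse, in the cytosol (ENSG00000120053, chr10:99396870-99431569, minus strand). GOT1 was at 49.8, 51.6 and 49.0 FPKM in sh-NC and 20.3, 20.8 and 19.2 FPKM in sh-CLGN. Mean GOT1 fell from 50.2 ± 1.34 to 20.1 ± 0.809 FPKM (SD, n = 3), and the highest sh-CLGN library was below the lowest sh-NC library by more than the spread of either group (log2 fold change -1.28, SE 0.0495, adjusted p = 1.59e-06). Only 1.23% of all tested genes had a lower fold change, and GOT1 was past both thresholds with 1 FPKM added and in each of the alternatives. GPT2 also passed both when sh-NC replicate 3 or sh-CLGN replicate 1 was left out. Over the 19 alternative settings the GOT1 value ran from -1.32 to -1.02, and the GPT2 value from -1.05 to -0.79. GPT2, the mitochondrial alanine aminotransferase, links pyruvate with glutamate (ENSG00000166123, chr16:46884378-46931297, plus strand). GPT2 was at 25.4, 24.8 and 22.6 FPKM in sh-NC and 11.9, 11.5 and 11.7 FPKM in sh-CLGN, 48.2% of the control level (log2 fold change -0.99, SE 0.0561, adjusted p = 5.88e-06).

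GOT2, the mitochondrial partner of GOT1, was at 66.2, 63.9 and 70.2 FPKM in sh-NC and 43.9, 40.6 and 40.2 FPKM in sh-CLGN (log2 fold change -0.67, SE 0.0560, adjusted p = 3.15e-05). GLUD1, glutamate dehydrogenase, which deaminates glutamate to 2-oxoglutarate, was at 141, 149 and 153 FPKM in sh-NC and 94.8, 94.7 and 86.7 FPKM in sh-CLGN (log2 fold change -0.68, SE 0.0551, adjusted p = 2.82e-05). All sh-CLGN libraries were below all sh-NC libraries for both. GLUD2 is a nearly identical retrocopy of GLUD1, and reads of this pair may have been split, so the values of both are uncertain. GLUD2 had a mean of 9.98 ± 0.735 FPKM in sh-NC and 6.41 ± 0.192 FPKM in sh-CLGN (log2 fold change -0.56, adjusted p = 0.000145). GLS2, the liver-type glutaminase, gave 2, 1 and 6 reads in sh-NC and 3, 1 and 0 reads in sh-CLGN, at the floor of 3 reads or near it, and 77.1% of its exon bases overlap SPRYD4 on the other strand.

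**Figure D3:**
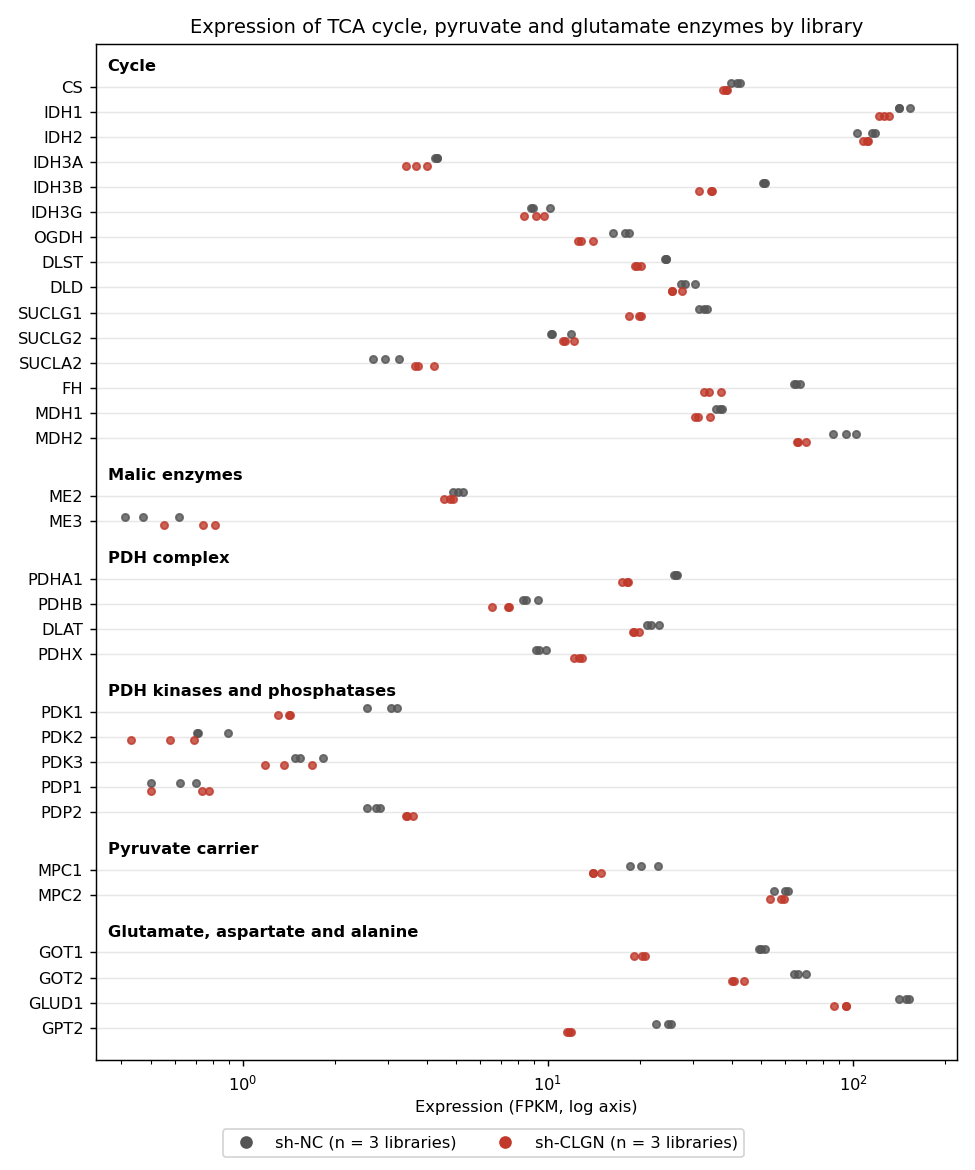
FPKM in each library (log axis) of 32 of the 33 genes by role, grey for sh-NC and red for sh-CLGN (n = 3 each). GLS2, which was at 0 in 1 library, is left out. The separation is widest for GOT1, GPT2, FH and PDK1, and the red points lie to the right of the grey ones for SUCLA2, PDHX and PDP2.

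Levels per length were compared across the enzymes within each group. In sh-NC, GLUD1 (148 ± 5.71 FPKM) and IDH1 (146 ± 7.0 FPKM) stood highest and did not differ beyond their spread. IDH2 (112 ± 8.13 FPKM) and MDH2 (94.1 ± 8.05 FPKM) followed. In sh-CLGN the order of the highest was IDH1 (126 ± 4.36 FPKM), IDH2 (110 ± 2.23 FPKM) and GLUD1 (92.1 ± 4.67 FPKM), with no overlap between neighbours. MDH2 (67.4 ± 2.515 FPKM) came next.

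Ratios of partner genes within a library do not depend on the scaling between libraries, and 13 pairs were compared. In 6 pairs the 3 ratios of one group lay wholly on one side of the other group, each with p = 0.1 in a two-sided exact permutation test, the smallest p that 3 against 3 libraries allow, and 0.217 after Benjamini-Hochberg adjustment over the 13 pairs. No pair could therefore pass 0.05. How often ratios of other gene pairs separate the groups was not computed, and 70.2% of all tested genes did so singly. The count of 6 can therefore not be read as particular to these pairs. The GOT1 to GOT2 ratio was 0.752, 0.808 and 0.699 in the sh-NC libraries and 0.463, 0.511 and 0.478 in the sh-CLGN libraries, so the cytosolic aminotransferase fell more than the mitochondrial one. The MPC1 to MPC2 ratio was 0.338, 0.329 and 0.383 in the sh-NC libraries and 0.250, 0.243 and 0.264 in the sh-CLGN libraries. The IDH3B to IDH3A ratio went from 12.1, 11.8 and 11.7 to 9.33, 7.82 and 10. All 3 were lower in sh-CLGN. PDK1 to PDK2 was lower as well, at 4.34, 3.59 and 3.58 in the sh-NC libraries and 3.31, 1.89 and 2.46 in the sh-CLGN libraries, where PDK2 rested on 40 to 76 reads. The ratios were not corrected for GC content, which was 54.6% for IDH3B and 43.7% for IDH3A, and 39.8% for PDK1 and 59.8% for PDK2. With GC correction the log2 fold changes of IDH3B and IDH3A were -0.47 and -0.26, against -0.60 and -0.18 without it. The part of GC content in the ratios was not tested.

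Within the PDH complex 2 ratios were higher in sh-CLGN. PDHX to DLAT was 0.454, 0.432 and 0.405 in the sh-NC libraries and 0.679, 0.613 and 0.659 in the sh-CLGN libraries, a 1.51-fold higher mean ratio. PDHB to PDHA1 was 0.315, 0.326 and 0.351 in the sh-NC libraries and 0.406, 0.408 and 0.375 in the sh-CLGN libraries, 1.2-fold higher. The ratios of IDH1 to IDH2, MDH1 to MDH2, SUCLA2 to SUCLG2, IDH3G to IDH3A, PDK3 to PDK2, PDP1 to PDP2 and ME3 to ME2 overlapped between the groups (exact permutation p of 0.2 or 0.4). Leaving out sh-NC replicate 1 raised the number of pairs without overlap from 6 to 11. Leaving out a library can only keep or raise this number, because a separated pair stays separated. With GLS2 at the floor, its ratio to GLUD1 was not formed.

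**Figure D4:**
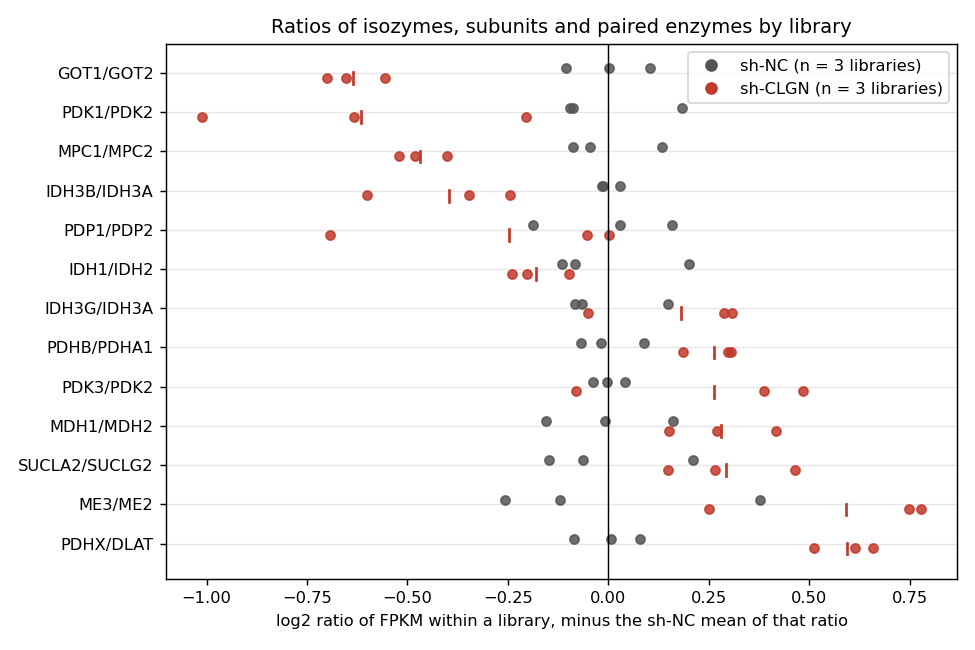
Log2 ratio of FPKM of partner genes in each library minus the mean of that ratio in sh-NC (x axis), for 13 pairs (grey sh-NC, red sh-CLGN, n = 3 each, red bar the sh-CLGN mean). Red points lie left of all grey points for GOT1/GOT2, PDK1/PDK2, MPC1/MPC2 and IDH3B/IDH3A, and right of them for PDHB/PDHA1 and PDHX/DLAT. The other 7 pairs overlap.

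Other genes of the same pathways were counted from a list of 51, of which 43 were tested. Of these, 24 were lower (55.8%, against 39.0% of all tested genes), 10 were higher (23.3%, against 26.7%) and 9 did not pass, with a median log2 fold change of -0.23. The 6 with the largest change were ranked on log2(FPKM + 1), which ranks low genes such as PDK4 below their ratio of FPKM. SDHD, the membrane anchor of succinate dehydrogenase, fell from 18.6 ± 0.544 to 8.84 ± 1.2 FPKM (log2 fold change -1.0, adjusted p = 4.00e-05), and SDHAF4, an assembly factor of that enzyme, from 8.54 ± 0.926 to 4.06 ± 1.15 FPKM (-0.93, adjusted p = 0.000916). LDHA, which reduces pyruvate to lactate, fell from 222 ± 7.52 to 113 ± 5.78 FPKM (-0.97, adjusted p = 5.70e-06). PCK2, the mitochondrial enzyme that makes phosphoenolpyruvate from oxaloacetate, fell from 74.5 ± 5.81 to 38.1 ± 0.710 FPKM (-0.95, adjusted p = 1.10e-05). Rises were seen for ABAT, which breaks down the transmitter GABA, from 5.39 ± 0.155 to 10.7 ± 0.390 FPKM (0.87, adjusted p = 8.68e-06). PDK4, a further PDH kinase, rose from 0.250 ± 0.0313 to 1.28 ± 0.0621 FPKM (0.87, adjusted p = 0.000113), 5.10-fold in the ratio of means and opposite in direction to PDK1.

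Of 14 known regulators of these enzymes, 12 were tested. Of these, 8 were lower (66.7%, against 39.0% of all tested genes), 1 was higher (8.33%, against 26.7%) and 3 did not pass. PPARGC1A and ESRRG were under the expression filter. PPARGC1A was at 0.372 ± 0.0777 FPKM in sh-NC and 0.846 ± 0.0525 FPKM in sh-CLGN, from 53 to 159 reads per library. ESRRG had 0 to 9 reads per library. NRF1, a transcription factor of nuclear genes for mitochondrial proteins, fell from 7.90 ± 0.332 to 3.90 ± 0.484 FPKM (log2 fold change -0.86, adjusted p = 5.23e-05). MYC fell from 39.3 ± 2.65 to 23.8 ± 1.08 FPKM (-0.70, adjusted p = 4.45e-05), and ESRRA, the estrogen-related receptor alpha, from 24.7 ± 1.83 to 14.9 ± 0.552 FPKM (-0.69, adjusted p = 5.54e-05). ATF4, the factor of the integrated stress response that drives genes of amino acid metabolism, fell from 250 ± 11.4 to 168 ± 3.39 FPKM (-0.57, adjusted p = 3.98e-05). The mitochondrial deacetylase SIRT3 fell from 5.52 ± 0.665 to 3.51 ± 0.247 FPKM (-0.53, adjusted p = 0.00112). GABPA, a subunit of nuclear respiratory factor 2, rose from 3.64 ± 0.404 to 5.89 ± 0.123 FPKM (0.57, adjusted p = 0.000323).

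Promoters were then searched for the letters of motifs of 4 of these regulators, on both strands, in windows of 250 bases before to 50 bases from each start in RefSeq (GRCh38.p14). Of the 33 genes 30 matched the table by symbol. The ATF4 motif TTGCATCA was found in 1 of the 30, GOT1, and in 0.661% of tested genes with a promoter. The NRF1 motif, present as GCGCCTGCGC in GLUD1 and SUCLA2, was found in 5 of 30 (MPC2, GLUD1, SUCLA2, IDH3A and IDH3G, 16.7%, against 13.9% of tested genes), of which 2 were lower, 1 was higher and 2 did not pass. The E-box CACGTG, which MYC and other factors bind, was found in 4 of 30 (PDHB, PDP2, ME3 and PDK2, 13.3%, against 12.8%), and TNAAGGTCA of the estrogen-related receptors in 0 of 30 (0.760% of tested genes). No gene held 2 different motifs of the 4. Over all promoters in the table the shares were 0.866% for ATF4, 5.78% for NRF1, 7.26% for the E-box and 0.951% for the receptors. A match of letters is a description and not a binding site. The windows shown are those of GOT1, the gene that fell furthest and holds the ATF4 motif 198 bases before its start, and of GLUD1 and SUCLA2, which hold the same NRF1 letters 208 and 38 bases before their starts and changed in opposite directions. They are on the minus strand, at chr10:99430575-99430874, chr10:87094794-87095093 and chr13:48001224-48001523, and capitals mark the motif. The GOT1 and SUCLA2 windows lie inside the spans of these genes in the deposited table, and the GLUD1 window crosses the start of its span.
GOT1: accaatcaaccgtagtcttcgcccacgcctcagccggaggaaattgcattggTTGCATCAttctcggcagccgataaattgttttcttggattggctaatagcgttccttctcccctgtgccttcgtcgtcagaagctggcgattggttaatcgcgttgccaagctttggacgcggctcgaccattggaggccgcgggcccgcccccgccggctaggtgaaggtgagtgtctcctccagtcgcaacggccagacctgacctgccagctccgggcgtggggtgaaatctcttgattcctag
GLUD1: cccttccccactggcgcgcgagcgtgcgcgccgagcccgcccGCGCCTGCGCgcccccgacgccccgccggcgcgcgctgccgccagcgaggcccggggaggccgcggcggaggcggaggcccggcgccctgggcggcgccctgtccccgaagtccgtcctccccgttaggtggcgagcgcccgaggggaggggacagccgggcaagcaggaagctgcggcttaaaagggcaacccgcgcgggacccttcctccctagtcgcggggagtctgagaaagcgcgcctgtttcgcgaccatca
SUCLA2: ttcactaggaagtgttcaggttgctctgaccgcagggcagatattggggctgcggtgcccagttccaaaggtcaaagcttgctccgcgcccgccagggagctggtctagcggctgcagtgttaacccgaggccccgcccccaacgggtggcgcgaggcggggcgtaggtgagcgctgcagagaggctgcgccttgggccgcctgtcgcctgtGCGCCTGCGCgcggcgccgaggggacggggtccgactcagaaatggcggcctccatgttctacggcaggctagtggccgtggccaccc

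The hairpin against CLGN can also pair with other transcripts through its seed, so the 3′ UTRs of the enzymes were searched for the heptamers that match positions 2 to 8 (TACCACA) and 3 to 9 (ATACCAC) of the strand complementary to its target. At least 1 heptamer was present in 4 of the 29 tested enzymes (13.8%, against 15.1% of tested genes with an annotated 3′ UTR). These were PDK1 (log2 fold change -0.72), IDH3A (-0.18), PDK3 (-0.12) and ME2 (-0.082), with a median of -0.15, against -0.25 for the 25 enzymes without one. GOT1, GPT2, FH, SUCLG1, GLUD1 and GOT2 held none. Over all tested genes with an annotated 3′ UTR, the median was -0.15 with either heptamer and -0.12 without. For positions 3 to 9 it was -0.19 against -0.12, and for positions 2 to 8 it was -0.13 against -0.12. An effect of the seed was not tested. The sites of IDH3A, PDK3 and ME2 are shown with the heptamer in capitals, at base 2717 after the stop codon in IDH3A, 2 in PDK3 and 239 in ME2.
IDH3A: tctcctgtgttATACCACtggttgtggcca
PDK3: tATACCACcttgatttccattacaaagtat
ME2: catacagcccgTACCACAtccaggagatgt

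GC content and single libraries were looked at beside these results. Across the 13068 tested genes with a known GC content, which are not independent, the log2 fold change had a Spearman correlation of -0.32 with GC content, and across the 29 enzymes one of -0.23. Within the controls, the difference of sh-NC replicate 3 from the other two had a correlation of -0.64 with GC content, and without this library 17 enzymes were lower and 4 higher. With the GC trend removed within each library, 5342 of the 13068 genes were lower and 3515 higher. Of the enzymes, 21 were lower and 3 higher, with a median of -0.27. These 3 were PDHX, PDP2 and IDH2, while SUCLA2 was no longer called and DLD, ME2 and MPC2 were called lower. Of the 21 enzymes called, 14 kept their call and direction under each of the 19 alternatives tried. These were IDH3B, OGDH, SUCLG1, FH, MDH2, PDHA1, PDK1, MPC1, GOT1, GOT2, GLUD1 and GPT2 among the lower, and PDHX and PDP2 among the higher. The other 7 (IDH1, IDH3A, DLST, MDH1, PDHB, DLAT and SUCLA2) lost the call or the direction under at least 1 of them.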

How the data were processed

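RNA-seq values of 3 sh-NC and 3 sh-CLGN Hep-G2 libraries were used. The deposited table gives FPKM, as computed by the authors, and the submitters' processing notes name HISAT2 2.0.5, featureCounts and GRCh38. The authors' test and the strand setting were not given in the sources used here. All 58735 gene positions equalled those of GENCODE 29. FPKM times gene length gave whole reads for 100% of values (tolerance 0.01 of a read), so depth was 14955816 to 16244639 reads per library, and reads are not independent molecules. Libraries of one group differed by more than sampling noise (chi-square per gene 2.23 to 8.70) and each was counted as a replicate.

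The 13074 genes that reached 1 FPKM in 3 or more libraries were tested on log2(FPKM + 1) with limma 3.58.1 (R 4.3.3), with intensity trend, two-sided, with Benjamini-Hochberg adjustment over all of them. Adding 1 FPKM understates the change of low genes. An exact permutation test was used for ratios. The enzymes and lists were chosen with earlier results of these data known. Every enzyme was accounted for, those called with values in every library (DLAT, the smallest change, by its means), and of the other lists the 6 largest changes among those that passed were named. Alternatives were pseudocount, filter, gene set, scaling, variance model, voom on the recovered reads, GC correction by lowess (span 0.3), replicate block and leaving out each library. Replicate numbers did not pair the libraries (correlations of deviations -0.018, -0.046 and -0.15). The limma procedure was tested on simulated data. Promoters came from RefSeq and 3′ UTRs from GENCODE. The sequence of 1 heptamer site is not reported here. Python 3.11.15 was used for the rest.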

Additional observations from a re-analysis of the deposited data

Results flagged for a closer look

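Rows named after the enzymes that are not members, such as pseudogenes and antisense transcripts, lie outside the comparison above, and 7 of the 22 found had at least 10 reads in all. Of these 7, 2 were higher in every sh-CLGN library than in any sh-NC library, against 31.3% of the 5800 pseudogene, antisense and lincRNA rows with as many reads. The count is no higher than that share, so it is not a trait of these rows, and the 2 are only described. GLUD1P3, a pseudogene of GLUD1, was at 1.05, 1.40 and 1.13 FPKM in sh-NC and 1.43, 1.84 and 1.87 FPKM in sh-CLGN, a ratio of means of 1.44, from 15 to 31 reads per library, while GLUD1 fell. SUCLA2-AS1, an antisense row of SUCLA2, gave 3, 2 and 3 reads in sh-NC and 10, 7 and 4 reads in sh-CLGN, a ratio of 2.32 in mean FPKM, with SUCLA2 higher as well. Without a stated strand setting, reads of SUCLA2 and of its antisense row cannot be told apart, and reads of GLUD1P3 may be shared with GLUD1. Neither difference was tested.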

How the results depend on the processing

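The values rest on 3 libraries a group and 1 hairpin, and genes with few reads (ME3, PDK2, PDP1, GLS2) limit what could be tested. Against 3 higher and 18 lower enzymes with a median of -0.20, quantile normalization gave 7 higher, 13 lower and a median of -0.14. Of all tested genes, 3954 were higher and 4251 lower in that fit. Read totals gave 5 higher and a median of -0.020, TPM a median of -0.087 and GC correction one of -0.27. Median-ratio scaling again gave 3 higher, 18 lower and a median of -0.20. With 0.1 FPKM added, or voom, 3 in place of 1 passed both thresholds. Without a filter 2 were higher and 13 lower, against 3263 and 4025 of all 58735 genes. Leaving out 1 library gave 3 to 4 higher, 15 to 18 lower, a median of -0.24 (without sh-CLGN replicate 1) to -0.18, a CLGN value of -1.39 to -1.24, and 6 to 11 separated ratio pairs (11 without sh-NC replicate 1 and 9 without sh-CLGN replicate 2), against 7 with 1 FPKM added to each gene before the ratio. The number of separated pairs cannot fall when a library is left out. With the replicate number as a block, 16 enzymes were lower and 3 higher, against 4757 and 3281 of all tested genes. IDH3A (adjusted p = 0.0855) and DLAT (adjusted p = 0.0528) lost their calls, and the block changed the call of no other enzyme.

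Directions turned for some enzymes, among them IDH1, MDH1 and DLAT, which were called lower, but none of these 3 passed in the other direction. In TPM the turned values were CS (0.012), IDH2 (0.10), IDH3G (0.085), DLD (8.3e-05), ME2 (0.027) and MPC2 (0.082). With quantile normalization they were CS (0.17), IDH1 (0.13), IDH2 (0.27), IDH3G (0.095), DLD (0.14), MDH1 (0.079), DLAT (0.063) and MPC2 (0.24). With read totals they were CS (0.078), IDH2 (0.17), IDH3G (0.14), DLD (0.066), ME2 (0.080), DLAT (0.014) and MPC2 (0.15), and with GC correction IDH2 (0.13), IDH3G (0.15) and SUCLG2 (-0.055). With 1 library left out, IDH2 ran from -0.084 to 0.014, turning without sh-NC replicate 1, IDH3G from -0.083 to 0.024, turning without sh-NC replicate 1 or sh-CLGN replicate 2, and MPC2 from -0.087 to 0.0013, turning without sh-CLGN replicate 3. The cause was not tested.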
